A study of Mus musculus with 2 samples.

Results

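Exons are not only the stretches that end up in mRNA. Some of them also lie in open chromatin away from the annotated transcription start sites (TSS), and such open exonic sites were taken from DNase-seq of the mouse adrenal gland. A peak is a stretch where the nuclease DNase I cut chromatin more than its surroundings. It was included when its centre lay in an annotated exon of a protein-coding gene and over 1 kb from any TSS of the basic GENCODE transcript set. In replicate 1, 5982 of 157595 peaks met this rule (3.80%), and in replicate 2, 7047 of 166206 (4.24%), a mean of 4.02% ± 0.314 (SD, n = 2). The centre lay in coding sequence for 3522 and 4310 peaks, in a 3′ untranslated region (UTR) for 2326 and 2578, and in a 5′ UTR for 134 and 159. No measured height or footprint was used to choose them.

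The tissue was whole adrenal gland of female B6CASTF1/J mice aged 36 days. B6CASTF1/J is a first-generation hybrid of C57BL/6J and the wild-derived strain CAST/EiJ, with no treatment or induced mutation given in the labels. The 2 libraries form 1 group. The labels call them biological replicates and number the animals differently, under a single donor record, so that errors are the spread between these libraries. No second tissue or condition was analysed here, peaks are not replicates, and no p-value was computed: exonic peaks are set against intronic peaks of the same library, and the libraries against each other. Height is the signal the authors deposited for each peak, in an unstated scaled unit. Because whole tissue was used, fewer cells with an open site and less open chromatin per cell cannot be told apart in it.

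An exon of a coding gene holds a coding part, read as codons by the ribosome, and at the ends of the transcript the 5′ and 3′ UTRs, which take part in translation and mRNA stability. Its DNA can carry binding sites of transcription factors as well, in which case the same bases serve as codons and as regulatory sequence. Within a peak, a footprint is a short stretch protected from cutting, as left by a bound protein. Steroid hormones come from the cortex of the adrenal gland, and catecholamines from the chromaffin cells of its medulla. The labelled tissue was checked by promoter heights: the cortical genes Nr5a1, Star, Cyp11a1 and Cyp21a1 had 3.61 to 6.62 in replicate 1 and 5.05 to 11.7 in replicate 2. The medullary genes Th, Dbh, Chga and Chgb had 0.738 to 10.4 and 0.989 to 17.0. The liver and kidney genes Alb, Apoa1 and Umod were at 0 in both libraries, and Slc12a1 was at 0 in replicate 1 and at 0.212 in replicate 2.

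The 8 tallest coding peaks found in both libraries are described first. They are the extreme and not typical: their heights of 11.3 to 23.2 in replicate 1 stand against a median of 0.850 over all coding peaks of that library. Their positions are on mm10, counted from 1, and heights are given for replicates 1 and 2. Angptl6, which encodes a secreted angiopoietin-like protein, had the tallest, in its exon 2 at chr9:20878141-20878480, with heights of 23.2 and 33.7. Sptbn4, encoding a spectrin of axon initial segments, followed with 16.8 and 28.8 at chr7:27361461-27361680, over the edge of exon 33. Spi1, encoding the myeloid transcription factor PU.1, had 14.1 and 21.5 in its last exon at chr2:91115161-91115320. Notch4, encoding a Notch receptor of endothelium, had 13.7 and 19.6 in its last exon at chr17:34587521-34587700. Each of the 8 was higher in replicate 2, as were 84.7% of all shared coding peaks. Of the 8, Angptl6, Sptbn4, Spi1, Notch4 and Ankrd24 lay in CpG-rich sequence and Rsad1, Scnn1a and Ccdc194 did not. CpG-rich means at least 55% GC and an observed over expected CpG ratio of at least 0.6 in the surrounding 500 bp.

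The other 4 were Rsad1, Ankrd24, Scnn1a and Ccdc194. Rsad1, a radical SAM domain protein gene, had 13.3 and 19.5 at chr11:94544061-94544220. Ankrd24, an ankyrin repeat gene, had 12.9 and 19.9 at chr10:81643601-81643860, in a coding exon of 1377 bp. Scnn1a, encoding the alpha subunit of the epithelial sodium channel, had 11.3 and 19.5 at chr6:125331061-125331260, and Ccdc194, a coiled-coil gene, 12.8 and 17.0 at chr8:71521761-71521940. The Ankrd24 peak lay 72 bp from a TSS of the comprehensive transcript set, whereas in the basic set used here its nearest TSS was 5.33 kb away. For the Notch4 peak the comprehensive set had one at 570 bp. For each of the 8 peaks, 30 bases are printed around the footprint nearest its centre in replicate 1, on the coding strand of the gene from 5′ to 3′, to show where the protected stretch lies relative to the coding sequence. Capitals mark the footprint, and for each peak a footprint of replicate 2 overlapped it. In Angptl6, Spi1, Notch4, Ankrd24 and Ccdc194 every base of the footprint is coding. In Rsad1, 14 of its 26 bases are. In Sptbn4 and Scnn1a none is: the peak crosses the exon edge and the footprint lies in the adjoining intron.
Angptl6: gcCTGGGCCAGCTGCGCGCGCAATTGCAgc
Sptbn4: cggtgAGCGCGTGGGCGGGGCTTTGgatgg
Spi1: cCAAGCACAAGGAGGCGCTGGCGCACCGct
Notch4: caCCACGCCGGGGGGCGGGGCCGCGCCGcg
Rsad1: caTCTTCCCCACAGGGGGCGCTCAGTACcc
Ankrd24: tggacgccgctCGCGAGGAgctggagcgca
Scnn1a: ctgGTAAGCCCCGCCCCTCGGTCCAGgacc
Ccdc194: tgTGTTAGCCGCGAGGTGGCGCTGAGGGAg

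The printed bases lie at chr9:20878273-20878302 for Angptl6, chr7:27361539-27361568 for Sptbn4, chr2:91115189-91115218 for Spi1 and chr17:34587577-34587606 for Notch4. For Rsad1 they lie at chr11:94544153-94544182, for Ankrd24 at chr10:81643730-81643759, for Scnn1a at chr6:125331182-125331211 and for Ccdc194 at chr8:71521844-71521873. The windows of Spi1 and Ccdc194 held the letters CNAGGNGGC, a core of the element read by the insulator protein CTCF. Those of Sptbn4, Notch4 and Scnn1a held GGGCGG, the box of Sp and KLF factors, which in Sptbn4 and Scnn1a is intronic, and that of Angptl6 the E-box CAGCTG. The windows of Rsad1 and Ankrd24 held none of the 12 motifs searched on both strands. A match is a description of the letters, not evidence of a bound factor.

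Before base composition was taken into account, exons held more open sites per Mb than introns. Coding sequence over 1 kb from any TSS held 118 peaks per Mb in replicate 1 and 144 in replicate 2, against 63.9 and 67.2 per Mb of intron, a coding over intron ratio of 2.00 ± 0.213 (SD, n = 2). For 3′ UTRs the density was 76.4 and 84.6 per Mb and the ratio to introns 1.23 ± 0.0451. The 5′ UTRs held 188 and 223 per Mb, 3.13 ± 0.266 times the intron density, but on 0.712 Mb of sequence only. Over all exons the ratio was 1.63 ± 0.130. Space outside protein-coding genes held 38.1 and 39.6 per Mb. The order 5′ UTR, coding, 3′ UTR, intron, outside was the same in both libraries.

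**Figure D1:**
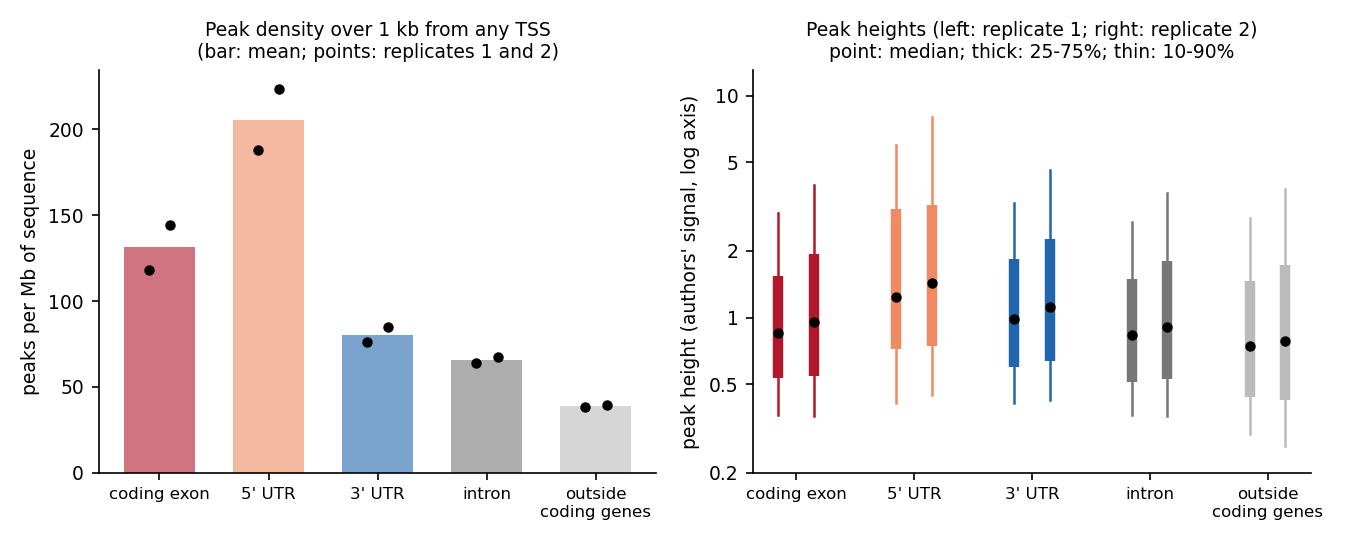
Left, peaks per Mb of sequence over 1 kb from any TSS, with the mean as a bar and replicates 1 and 2 as points. Right, peak heights on a log axis, with the median as a point and bars for the central parts of the distribution. Coding exons held 118 and 144 peaks per Mb against 63.9 and 67.2 in introns, while the median heights of coding exons and introns were close, at 0.850 and 0.953 against 0.832 and 0.909.

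Distance from the TSS moved with this difference in size but not in direction. Between 1 and 2 kb from the nearest TSS, coding sequence held 232 and 293 peaks per Mb, against 115 and 125 in introns. Between 10 and 50 kb it held 99.5 and 114 per Mb, against 63.7 and 66.2 in introns, and beyond 50 kb 96.7 and 123, against 44.4 and 45.7. Coding sequence was the denser in all 5 distance classes of both libraries, with ratios from 1.56 to 2.69. The 3′ UTRs, by contrast, held fewer peaks than introns between 1 and 2 kb, with ratios of 0.668 and 0.715, and more than introns in the 4 classes farther out, with ratios from 1.02 to 1.28.

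**Figure D2:**
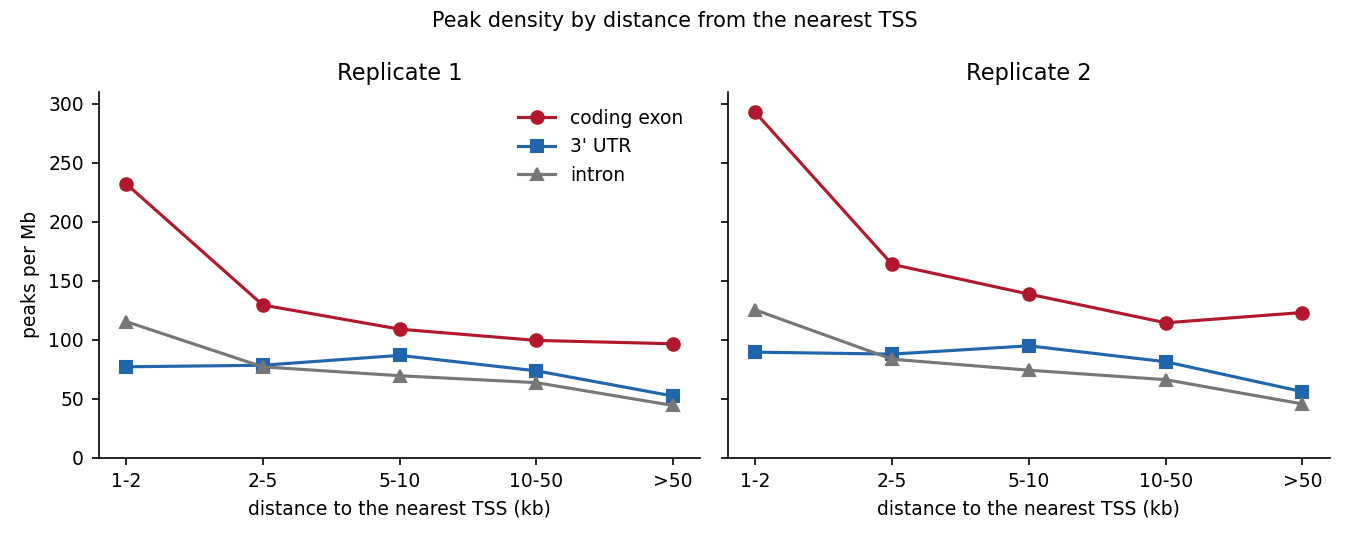
Peaks per Mb (y axis) by distance of the peak centre from the nearest TSS in kb (x axis) for coding exons, 3′ UTRs and introns, 1 panel per replicate. Coding exons lie above introns in every class, with 232 and 293 against 115 and 125 peaks per Mb nearest the TSS, and 3′ UTRs cross the introns at 2 kb.

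Base composition moved with the density more strongly, and the coding excess was not uniform across it. Coding peaks had a median GC content of 57.0% and 57.8%, those in 3′ UTRs 53.2% and 54.0%, and intronic peaks 50.9% and 52.1%. In sequence with under 40% GC in the surrounding 500 bp, coding exons held 41.7 and 35.9 peaks per Mb, against 16.8 and 13.8 in introns, ratios of 2.48 and 2.61. Between 45% and 50% GC the ratio was 1.02 and 1.11, and between 50% and 55% it was already below 1, at 0.782 and 0.834. Between 55% and 60% it was lower still, with 148 and 204 peaks per Mb in coding exons and 253 and 297 in introns, ratios of 0.585 and 0.688. At 60% GC or more the ratio was 0.923 and 1.01. At equal GC the ratio of 3′ UTRs to introns ranged less widely, with values from 0.836 to 1.16 over the 6 classes and both libraries.

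**Figure D3:**
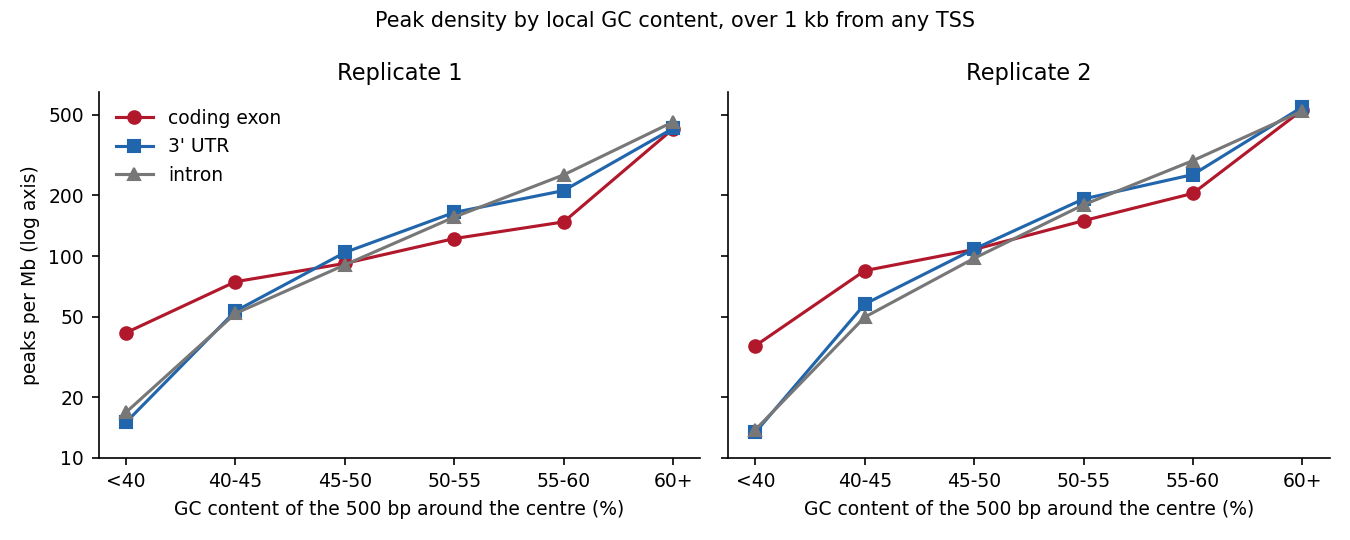
Peaks per Mb on a log axis (y) by GC content of the 500 bp around the centre (x) for coding exons, 3′ UTRs and introns, 1 panel per replicate. The coding line starts above the intron line, at 41.7 and 35.9 against 16.8 and 13.8 peaks per Mb, meets it between 45% and 50% GC, and runs below it between 50% and 60%.

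Coding peaks also differed from the others in CpG content and repeats. CpG-rich sequence surrounded 17.5% and 17.7% of coding peaks, 26.1% and 26.4% of those in 5′ UTRs, 3.18% and 3.34% of those in 3′ UTRs, and 1.38% and 1.41% of intronic peaks. Repeats made up a mean of 3.84% and 3.69% of the bases of coding peaks, 7.75% and 7.96% of those in 3′ UTRs, and 10.6% and 11.4% of those in introns. CpG-rich coding peaks were taller than the other coding peaks, with median heights of 1.12 and 1.39 against 0.804 and 0.874. A part of the sites lay near start sites outside the basic set: a TSS of the comprehensive set lay within 1 kb of 18.5% and 19.9% of coding peaks, 28.4% and 32.7% of 5′ UTR peaks, and 4.26% and 3.96% of 3′ UTR peaks. Coding peaks near such a TSS had median heights of 0.962 and 1.06, against 0.822 and 0.927 for the rest.

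Within the coding part, the density differed with the exon's place. Coding exons that are the first of their transcript held 370 and 441 peaks per Mb, genes with a single exon 318 and 414, last exons 160 and 191, and internal exons 104.7 and 129. For these densities the bases were those of 1 transcript per gene, whereas peaks in coding exons of any transcript of the basic set were counted. Internal exons still held most of the coding peaks, 68.8% and 69.2%. The exons with a coding peak were long, with a median of 260 and 252.5 bp, against 141 bp for all 192213 coding exons with sequence over 1 kb from a TSS. A longer exon offers more bases for a centre to fall in, and this was not corrected for. Of the coding peaks 46.6% and 47.8% lay wholly inside the exon, its UTR part included, and the rest crossed its edge. Those inside had median heights of 0.766 and 0.847, and those that crossed 0.934 and 1.04. A footprint was found in 65.4% and 64.4% of those inside and in 78.8% and 78.1% of those that crossed. Neither comparison was adjusted for peak width, nor the footprint shares for height. Peaks in 3′ UTRs lay inside the exon in 96.1% and 96.2% of cases, in exons of a median of 2541.5 and 2543.5 bp.

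Peak heights differed less than densities. Median heights were 0.850 and 0.953 in coding exons, 0.981 and 1.12 in 3′ UTRs, 1.24 and 1.44 in 5′ UTRs, and 0.832 and 0.909 in introns. On the log2 scale, coding peaks were lower than 3′ UTR peaks by a difference of -0.22 ± 0.02 (SD, n = 2), and exonic peaks differed from intronic ones by 0.13 ± 0.04. At equal GC, coding peaks were lower than intronic ones in both libraries from 40% GC upward, by log2 differences of -0.12 and -0.07 between 40% and 45%, of -0.33 and -0.32 between 50% and 55% and of -0.60 and -0.68 at 60% or more. Promoter peaks had medians of 1.78 and 2.31, which 20.8% and 20.2% of coding peaks, 26.4% and 24.6% of 3′ UTR peaks and 38.1% and 33.3% of 5′ UTR peaks exceeded, against 19.6% and 18.5% of intronic peaks. At the edge of the rule, the 132 and 161 exonic peaks between 1000 and 1100 bp from a TSS had median heights of 0.841 and 1.06, and the 138 and 176 between 900 and 1000 bp, which were not included, 1.09 and 1.27.

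Footprints were found in most exonic sites, and the share was lower in coding exons than in 3′ UTRs in both libraries, by a difference of -6.84 ± 1.13 percentage points (SD, n = 2). At least 1 footprint overlapped 72.5% and 71.5% of coding peaks, 78.6% and 79.2% of 3′ UTR peaks, 78.4% and 75.5% of 5′ UTR peaks, and 75.8% and 74.8% of intronic peaks. The share moved with height: it was 18.9% and 19.9% in the lowest of 10 height groups of coding peaks and 99.7% and 99.5% in the highest. Set against intronic peaks weighted to the same heights, coding peaks differed by -3.93 and -4.38 percentage points, at 72.5% and 71.5% against 76.5% and 75.9%. For 3′ UTR peaks the same comparison gave differences of -1.93 and -0.695 percentage points. In height group 7 the shares were 87.8% and 83.1% in coding exons against 92.7% and 91.1% in introns. Of the footprints in shared peaks, 52.2% and 48.7% of those in coding peaks overlapped a footprint of the other library, as did 57.3% and 54.99% in 3′ UTR peaks and 52.8% and 53.0% in intronic peaks. Footprints were assigned by their peak, and in a coding peak that crosses the exon edge they can be intronic. The median footprint length was 9 and 10 bp in shared coding peaks.

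**Figure D4:**
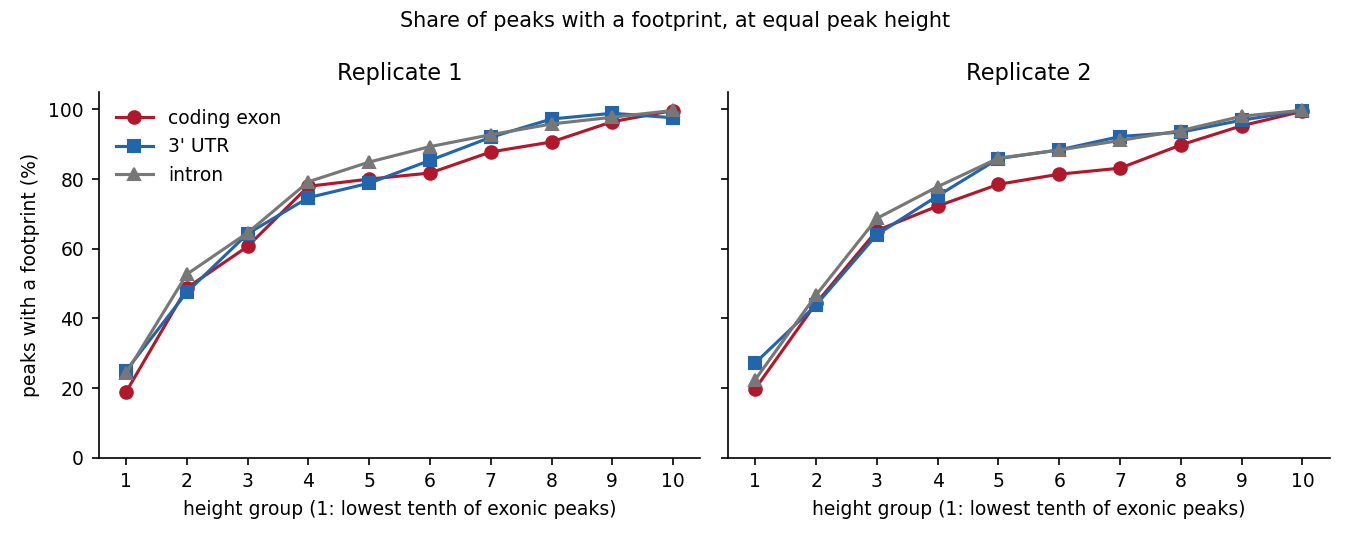
Share of peaks with at least 1 footprint in percent (y axis) in 10 height groups of equal numbers of exonic peaks of that library (x axis, lowest to highest), for coding exons, 3′ UTRs and introns, 1 panel per replicate. In group 7 coding exons stood at 87.8% and 83.1% against 92.7% and 91.1% in introns, and in the highest group coding exons reached 99.7% and 99.5% against 99.7% and 99.8% in introns.

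Replicate 2 held more exonic sites, and coding exons gained most. It had 22.4% more coding peaks, 18.7% more 5′ UTR peaks and 10.8% more 3′ UTR peaks than replicate 1, against 5.22% more in introns. The gain differed with GC content: under 40% GC, coding peaks numbered 181 in replicate 2 and 210 in replicate 1, whereas between 55% and 60% they numbered 1057 and 763, a ratio of 1.39, where introns had 1.18. At 60% GC or more the ratio was lower again, 1.24 in coding exons and 1.13 in introns. Shared coding peaks were also higher in replicate 2, by a median log2 ratio of 0.49, against 0.39 in 3′ UTRs and 0.30 in introns. The part of GC content or of library preparation in these differences was not tested.

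Most exonic sites were found in both glands. A peak of the other library overlapped 82.7% of the coding peaks of replicate 1 and 68.6% of those of replicate 2, and 83.5% and 75.8% of the 3′ UTR peaks, against 78.8% and 74.9% of intronic peaks. In 4798 cases the overlapping peak of replicate 2 also met the rule, and in 4733 of these it fell in the same exon class. Heights of shared exonic peaks ran in parallel, with Spearman's rho of 0.916 across 4975 peaks of 2 libraries, a description of those libraries. Unshared coding peaks were low, with median heights of 0.411 and 0.508 against 1.01 and 1.39 for shared ones, and 41.1% and 45.7% of them had a footprint against 79.1% and 83.3% of shared ones.

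Short motifs differed in frequency between exonic and intronic sites. In the 200 bp around the peak centre the AP-1 element TGANTCA, read by Fos and Jun proteins, occurred in 13.1% and 10.8% of coding peaks and 16.7% and 15.8% of 3′ UTR peaks, against 22.4% and 19.6% of intronic peaks. In windows 600 bp to either side of the coding peaks it occurred in 4.71% and 4.74%. The element CAAGGTCA of SF-1, the factor encoded by Nr5a1 that governs the steroidogenic program, occurred in 5.00% and 4.57% of coding peaks against 5.73% and 5.40% of intronic peaks, and in 1.33% and 1.43% of the flanks of coding peaks. The direction against introns was the opposite for several other motifs, among them motifs rich in G and C. The E-box CAGCTG was found in 24.3% and 24.2% of coding peaks against 17.0% and 17.96% of intronic peaks, and the CTCF core in 9.11% and 8.93% against 6.00% and 6.08%. The Sp and KLF box was found in 13.0% and 14.3% against 6.84% and 7.57%. CCGGAAG, the site of ETS factors, was found in 2.98% and 3.43% against 1.38% and 1.503%. GCGCATGCG, the site of NRF1, was rare, at 0.539% and 0.464% of coding peaks against 0.0898% and 0.107% of intronic peaks. Smaller differences were seen for the E-box CACGTG, at 4.40% and 4.41% against 4.04% and 4.31%. For the CRE TGACGTCA the shares were 0.539% and 0.487% against 0.423% and 0.439%. AGATAAG, the site of GATA factors, was rarer in coding peaks, at 1.70% and 1.55% against 3.18% and 3.07%, and no more frequent there than in their flanks (2.58% and 2.46%). The part of base composition in these shares was not tested. Coding peaks with the CTCF core were taller than those without it, with medians of 1.17 and 1.35 against 0.822 and 0.927. This was not particular to coding exons: intronic peaks with the core had medians of 1.21 and 1.46, against 0.813 and 0.883 without it. In both libraries the direction was the same in 3′ UTRs, in 5′ UTRs and outside protein-coding genes.

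The tallest 5′ UTR sites all lay in CpG-rich sequence. The tallest 8 found in both libraries ran from 10.7 to 17.97 in replicate 1 and from 15.8 to 25.0 in replicate 2. Of these, 6 held the Sp and KLF box within the peak. Among all 5′ UTR peaks, 23.9% and 25.2% held it in the 200 bp around the centre. Acbd4, an acyl-CoA binding protein gene, had 17.97 and 23.9 at chr11:103102761-103102980, and the zinc finger gene Zfp503 15.8 and 25.0 at chr14:21987841-21988100. Pura, encoding a single-stranded nucleic acid binding protein, had 13.8 and 21.7, Pdcl3, a phosducin-like gene, 15.7 and 19.0, and Msra, a methionine sulfoxide reductase gene, 12.5 and 18.8. The exon shared by Rap2b, a small GTPase gene, and B430305J03Rik had 12.2 and 18.1, the SOCS box gene Asb6 10.7 and 16.6, and Pop5, a subunit of RNase P, 11.4 and 15.8. For 5 of the 8, Acbd4, Pdcl3, Msra, Asb6 and Pop5, a TSS of the comprehensive set lay within 150 bp of the centre.

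In 3′ UTRs the tallest site was that of Lars2, the mitochondrial leucyl-tRNA synthetase gene, with 42.3 and 51.4 at chr9:123461921-123462100. Only 35.6% of its 32-mers occur once in the genome, so that reads from other copies cannot be told apart there, and none of its 149 32-mers occurs in the mitochondrial genome. Cers5, a ceramide synthase gene, followed with 22.7 and 18.8 at chr15:99735641-99735920. It was the only one of the 24 tallest named sites that was lower in replicate 2, and it had 0 footprints in replicate 1 and 5 in replicate 2. Of all shared exonic peaks, 82.9% were higher in replicate 2. Unc13a, a gene of synaptic vesicle priming, had 17.7 and 23.4 at chr8:71629321-71629520, and the pro-apoptotic gene Bad 12.7 and 18.5 at chr19:6951481-6951740. A TSS of the comprehensive set lay 844 bp from the Bad site and 654 bp from that of Btbd19. Btbd19, a BTB domain gene, had 12.3 and 17.2, Akt1s1, an inhibitor of mTORC1, 11.4 and 17.4, the agouti gene 11.5 and 17.1, and the exon end shared by Lrrc14 and Lrrc24 11.2 and 17.0. Of the 8 peaks, 4 held the Sp and KLF box within the peak, against 10.6% and 10.8% of all 3′ UTR peaks in the 200 bp around the centre. None of the 8 lay within 150 bp of a TSS of the comprehensive set.

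The sites were spread over many genes. Of 21911 protein-coding genes, 4484 (20.5%) had at least 1 exonic site in replicate 1 and 5036 (23.0%) in replicate 2, 3880 of them in both. Most of these genes had 1 site, 3357 and 3604, and 332 and 436 had 3 or more. Genes with a site had more exonic sequence over 1 kb from a TSS, with a median of 3.54 and 3.51 kb, against 1.91 and 1.87 kb for genes without. The gene with most sites was Syne1, encoding the giant nuclear envelope protein nesprin-1, with 7 and 10 on 29.5 kb of such sequence, all coding. Its tallest, at chr10:5317741-5317900 in exon 43 of 146, had 3.41 and 6.19, and its others ran from 0.430 to 1.45 in replicate 1 and from 0.265 to 0.794 in replicate 2. Tchh, encoding trichohyalin of the hair follicle, followed with 7 and 9 sites, all in its long last exon. Of its 9 in replicate 2, 1 lay in sequence of which only 35.0% of 32-mers occur once.

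Star, whose product carries cholesterol into mitochondria as the rate-limiting step of steroid synthesis, was the next, with 7 and 8 sites on 3.87 kb, or 1.81 and 2.07 per kb of exon. Of these, 5 and 6 lay in its 3′ UTR and 2 and 2 in coding sequence. The tallest, at chr8:25813721-25814020 in the 3′ UTR, reached 3.82 and 6.41, against 6.31 and 9.07 at the Star promoter. Farther along the same UTR, the peak at chr8:25814741-25814960 had 2.98 and 5.81, and that at chr8:25814961-25815220 1.96 and 5.17. The second of these had no footprint in either library. The coding site over exon 7 had 0.785 and 1.99. A peak over exon 2 had 1.41 in replicate 1, where its centre lay 1007 bp from the TSS, and 2.11 in replicate 2, where its centre lay within 1 kb and it was not counted. All 5 of the 3′ UTR sites of replicate 1 overlapped a peak in replicate 2 that was higher, as was the case for 79.9% of all shared 3′ UTR peaks.

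**Figure D5:**
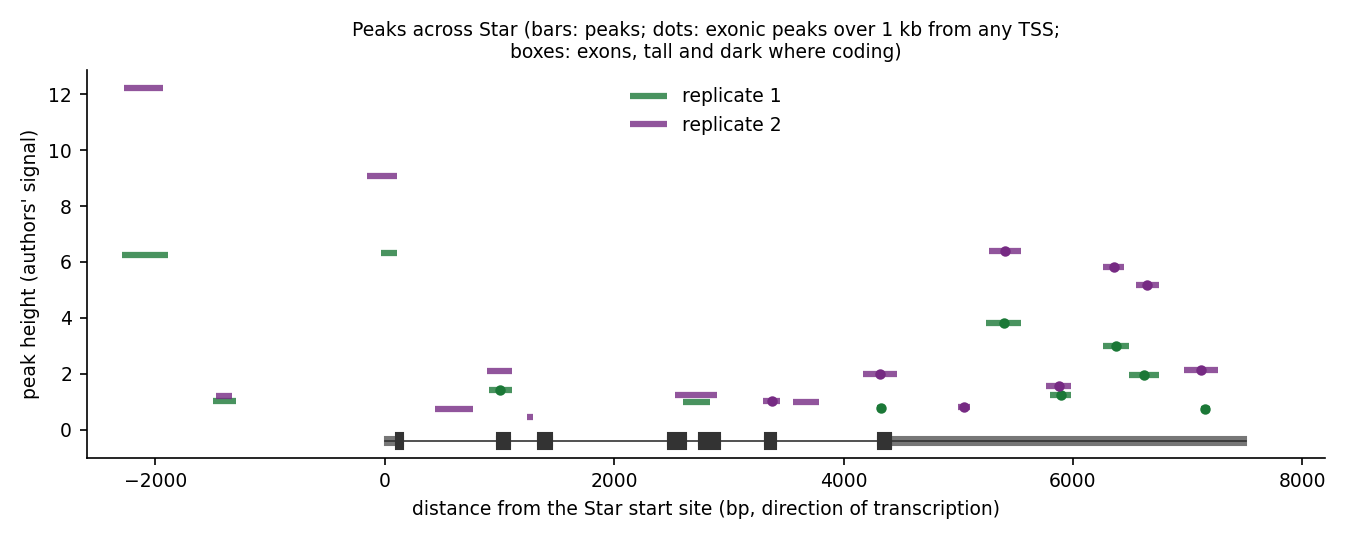
Map of Star with the distance from its start site in bp (x axis) and peak height (y axis); bars are peaks of replicates 1 and 2, dots mark exonic peaks over 1 kb from any TSS, and boxes below are exons. The 3′ UTR, the long box on the right, carries 5 and 6 sites, the tallest at 3.82 and 6.41.

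The other 9 of the 12 genes with most sites were of several kinds. Kcnk3, a potassium channel gene of the aldosterone-making zone, had 6 and 7 sites, all at or below 1.23 in replicate 1 and 2.07 in replicate 2, at 1.77 and 2.07 per kb of exon. Of its sites in replicate 2, a pair overlap each other and are counted separately. Dclk2, a microtubule-associated kinase gene, had 5 and 8, of which 4 and 7 lay in its 3′ UTR. Notch3, the Notch receptor gene of vascular smooth muscle, had 5 and 7, all coding, with 4.36 and 7.997 at the tallest. Fry, encoding a large scaffold protein of the same name, had 4 and 8 coding sites, led by 8.17 and 9.36 at chr5:150466281-150466440. Sec14l5, a lipid-transfer-like gene, had 7 and 5, and Irf2bp2, a corepressor gene, 7 and 5; in replicate 1 each of them had a pair of sites that overlap each other. Sptbn4 had 5 and 6, all coding, Dab2ip, a Ras GTPase-activating protein gene, 4 and 7, with 8.11 and 14.4 at the tallest, and Lrp1, an endocytic receptor gene, 6 and 5. Outside this rule and chosen after its values were seen, Pcdh17, a protocadherin gene, had 1 site in replicate 1 and 9 in replicate 2, of which 1 was shared.

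Genes of steroid synthesis were set beside all protein-coding genes. Of 18 genes of steroidogenesis, 7 in replicate 1 and 9 in replicate 2 had a site, 38.9% and 50%, against 20.5% and 23.0% of all protein-coding genes. Their exons held 554 and 739 sites per Mb, against 98.0 and 115.5 over all exons. Star alone gave 7 of the 18 and 8 of the 24 sites. Hsd3b1, a 3β-hydroxysteroid dehydrogenase gene, had 3 and 5 sites, the tallest at 2.04 and 1.47. Cyp11b1, the 11β-hydroxylase gene of corticosterone synthesis, had 3 and 3, the tallest found in both at 1.49 and 2.56, and Cyp11b2, the aldosterone synthase gene, had 2 and 1. At the tallest sites of Hsd3b1 and Cyp11b1 only 74.2% and 78.7% of 32-mers occur once, so that reads of related genes may be counted there. Of 22 genes of cholesterol synthesis and uptake 5 and 7 had a site, 22.7% and 31.8% against the same 20.5% and 23.0%. Abca1, a cholesterol exporter gene, had 1 coding site in each library, of 1.27 and 0.715.

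Genes of stimulus response, of the clock and of adrenal regulation were counted in the same way, and heights are given for named members. Of 16 immediate early genes, which respond to stimuli within minutes, 8 and 8 had a site, 50% in each library, against 20.5% and 23.0% of all protein-coding genes. Ier2 had 11.6 and 14.996 in its 3′ UTR at chr8:84661621-84661800, 1.14 kb from its TSS, Jun 6.29 and 10.3 in its 3′ UTR at chr4:95049981-95050160, and Klf4 3.999 and 6.08 in a coding exon. Of 18 circadian clock genes 6 and 6 had a site, 33.3% in each library against the same 20.5% and 23.0%, led by the clock output factor Dbp with 8.40 and 12.5 over exon 2 at chr7:45706881-45707100, 1.71 kb from the nearest TSS of the basic set and 113 bp from one of the comprehensive set. Per2, a repressor of the clock, had 1.93 and 2.82. Of 20 genes of adrenal transcription factors 8 and 11 had a site (40% and 55%), none above 2.15 in replicate 1 or 3.12 in replicate 2. Cited2, a transcriptional co-regulator gene, reached 1.99 and 3.12, and Nr5a1 itself had none in replicate 1 and 1 of 0.353 in replicate 2.

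Lists of markers of other cell types of the gland differed in the share of genes with a site. Of 14 endothelial genes 8 and 11 had one, 57.1% and 78.6% against 20.5% and 23.0% of all genes, in exons of a median of 3.19 kb. Vwf, encoding von Willebrand factor, had 5.16 and 8.14 in its exon 34 of 52 at chr6:125649121-125649280, 68 bp from a TSS of the comprehensive set, Plvap, a gene of endothelial diaphragms, 4.46 and 7.65, and Kdr, a VEGF receptor gene, 2.47 and 3.16. Of 24 chromaffin genes 7 and 9 had a site (29.2% and 37.5%), with 4.31 and 5.45 at the synaptic vesicle gene Syp and 1.99 and 2.36 at Phox2a, a sympathoadrenal transcription factor gene. Of 12 genes of capsule and stroma 3 and 3 had one (25% in each library, near the share of all genes), the tallest 1.23 and 1.71 at the collagen gene Col1a2. Of 14 macrophage genes 2 and 3 had one, 14.3% and 21.4% against 20.5% and 23.0% of all genes, in exons of a median of 1.02 kb. The Spi1 site was among them. That coding site stood at 14.1 and 21.5 where the promoter of Spi1 had no peak in replicate 1 and 0.618 in replicate 2.

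Genes known for liver and kidney also had exonic sites, in 6 and 7 of 15 cases. Apoa1, a plasma apolipoprotein gene, had 3.92 and 6.10 in its last exon at chr9:46229981-46230160 with no promoter peak in either library. Slc12a3, a salt transporter gene of the kidney, had 5.09 and 6.51 in its 3′ UTR at chr8:94358701-94358900. Alb, the albumin gene, had 2 and 1 coding sites, of at most 0.402 and 0.415. The share of these genes with a site, 40% and 46.7%, was above the 20.5% and 23.0% of all protein-coding genes, as was that of steroidogenesis, in exons of a median of 2.78 kb against 1.63 kb. Such shares rest on small lists and on the length of their exons. Per Mb of exon, the liver and kidney genes held 100 and 114 sites, near the 98.0 and 115.5 over all exons. Clock genes held 108 and 134, cholesterol genes 87.9 and 126, macrophage genes 76.4 and 115, and capsule and stroma genes 82.4 and 61.8. Above these stood chromaffin genes with 136 and 221 and adrenal transcription factors with 188 and 273. Endothelial genes held 232 and 392, immediate early genes 386 and 351, and steroidogenesis 554 and 739.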

How the data were processed

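Per the text deposited with the labels, peaks and footprints are on mm10. The peak height is a signal that the authors scaled before they deposited it; the sources used here do not give its scaling, the aligner, the peak caller or the read numbers, so that depth is unknown and no counting interval is given. The hybrid genome holds CAST/EiJ alleles, and any effect on alignment was not tested. Of the pair of peak lists per library the longer was used. The deposited footprint lists gave positions only, since their p-value column was constant. The FDR tables were not used.

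Peaks were placed by their centre on the basic set of GENCODE release M21 (GRCm38.p6, same coordinates as mm10), in the order coding, 5′ UTR, 3′ UTR, intron. Density is peaks per Mb of the same class over 1 kb from any TSS. For the place of the exon, the bases were those of 1 transcript per gene. Peaks were shared, and footprints counted, at an overlap of 1 bp. Low uniqueness means under 90% of 32-mers occurring once in the genome. Classification and overlap were tested on simulated peaks. The tools were Python 3.11.15, scipy 1.17.1, pandas 2.3.3, matplotlib 3.10.9, numba 0.67.0 and numpy 2.4.6.

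The sites, 10 gene lists, 12 motifs and rules were chosen with earlier results of these data known. Named were the 8 tallest peaks per class in both libraries, the 12 genes with most sites, and up to 3 genes per list with the tallest sites. A gene under this rule is not reported here.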

Additional observations from a re-analysis of the deposited data

How the results depend on the processing

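With 1 library left out in turn, the number of exonic sites ran from 5982 to 7047, the coding share from 58.9% to 61.2%, the density of exons over introns from 1.53 to 1.72, the log2 height of exonic over intronic peaks from 0.11 to 0.16, that of coding over 3′ UTR peaks from -0.23 to -0.21, the footprint share from 74.4% to 75.03% and the shared part from 71.4% to 83.2%. Of 61 recomputed values 10 moved by more than the spread between the replicates, or, for the number of sites, by over 1.5 times, and none changed direction. The 61 include the values with 1 library left out. Apart from the number of sites, these could not count as moved, since with 2 libraries that shift is always below the SD. With the shorter peak list the mean number of sites was 4023, the log2 difference of coding from 3′ UTR heights -0.17 and the footprint share 87.5%. Over 2 kb from a TSS, the coding share was 58.4%, the height difference -0.26 and the footprint share 75.8%. With the comprehensive transcript set, chosen after the data were seen, the coding share was 48.2% and the height difference -0.25; exons of noncoding transcripts then form a class of their own. Above the median height, exonic exceeded intronic peaks by 0.0724 on the log2 scale, and with footprints counted within 75 bp of the centre the share was 74.2%. The cause was not tested. No paired analysis was possible because the 2 libraries form 1 group. The unknown depth limits what a missing low site can show.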
